A study of Mus musculus with 6 samples.

Results

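The genes of MHC class II antigen presentation were measured in livers of mice carrying a c-Src transgene and of wild-type mice. The 7 members, H2-Aa, H2-Ab1, H2-Eb1, H2-DMa, H2-DMb1, Cd74 and Ciita, were found through the RefSeq transcript accessions of the array's probes. They are 7 of 13971 named genes, each read by 1 probe. The transgenic group held 3 mice (replicates 1, 3 and 4) with human c-Src behind the mouse metallothionein promoter, a promoter that zinc induces and that is active in many tissues. They were set against 3 wild-type mice (replicates 1, 2 and 4), and the study left out 1 further array of each genotype for low signal. All 6 mice were C57BL/6 and 14 months old, and each gave 1 liver RNA to a 1-colour oligonucleotide array. The study asked which genes downstream of Src might take part in liver carcinogenesis, in mice that mostly needed no zinc for induction. Tumour content of the sampled livers, zinc use in these mice and their sex are not given.

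Class II molecules are pairs of an alpha and a beta chain that carry peptides from endosomes to the surface of antigen-presenting cells, where CD4+ T cells read them. The invariant chain, encoded by Cd74, fills the groove until the H2-DM protein exchanges its last fragment for a peptide. Transcription of these genes depends on the coactivator CIITA, which has no DNA contact of its own and binds factors held at the X and Y boxes of their promoters. In the liver, class II is a property of B cells, dendritic cells, Kupffer cells and sinusoidal endothelium more than of hepatocytes. In bulk liver RNA, fewer cells of a type and less RNA per cell cannot be told apart.

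The arrays differed in brightness. Median raw signals over mouse probes were 94.8 to 117 on transgenic arrays and 53.8 to 93.4 on wild-type arrays. Values below are therefore log2 signals after quantile normalization unless called raw or summed signals. The hepatocyte genes Alb and Apoa1 lay at 14.9 to 15.2 on all 6 arrays. Quantile normalization gives the brightest probes nearly the same values on every array, so this closeness does not show that the arrays are comparable. Under median scaling the log2 changes of Alb and Apoa1 were -0.61 and -0.64. Src, read by a mouse probe that may not read the human transcript, lay at 9.67, 8.48 and 7.71 on transgenic replicates 1, 3 and 4, above its wild-type values of 6.65, 7.21 and 6.62. The endogenous metallothionein genes Mt1 and Mt2 had log2 changes of 3.71 ± 0.53 and 4.88 ± 0.44 (SE). Every transgenic array lay above every wild-type array for them too, as for 10.1% of all features. None of these 3 genes passed the adjusted threshold of limma (adjusted p = 0.69 for Src and Mt1, 0.35 for Mt2), and the part of metallothionein induction in the values below was not tested. Transgenic replicate 4 stood apart: its mean over the Y-linked genes Ddx3y, Eif2s3y, Uty and Kdm5d deviated from the wild-type mean by -2.22, against 0.40 and 0.20 on transgenic replicates 1 and 3. There the first 3 were not above background, as they were on the other 5 arrays, while Kdm5d lay at 9.03. The members' changes are therefore given with and without that array, and those of the gene lists where the array moved them.

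The promoters of class II genes show the shared design that CIITA works through, and the following stretches are printed for the 3 members whose RefSeq promoter window held more than 1 searched motif. Capitals mark the motifs, each strand is that of the gene, and sequences and coordinates are from RefSeq on GRCm38.p6, where all 3 genes lie in the H2 complex of chromosome 17.
H2-Aa (chr17:34287847-34287917, minus strand): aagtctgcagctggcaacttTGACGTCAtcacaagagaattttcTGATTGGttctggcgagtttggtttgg
H2-Eb1 (chr17:34305755-34305832, plus strand): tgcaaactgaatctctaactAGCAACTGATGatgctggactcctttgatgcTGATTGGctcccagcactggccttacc
H2-DMb1 (chr17:34153076-34153154, plus strand): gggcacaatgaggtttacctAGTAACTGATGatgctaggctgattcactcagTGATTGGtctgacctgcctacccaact
The motifs were the Y box core TGATTGG, which NF-Y binds, the X box, which the RFX complex binds (AG, any base, AAC, any base, GATG), and the X2 box TGACGTCA, a CREB site. They were searched on both strands, their matches in these genes did not overlap, and their letters were chosen with these promoters in view. The Y box core began 50 bases before the transcript start in H2-Aa, 61 in H2-Eb1 and 63 in H2-DMb1. An X box lay 20 bases before it in H2-Eb1 and 21 bases before it in H2-DMb1, and in H2-Aa the X2 match lay 16 bases before it. Of all 32851 windows, 7.82% held the Y box core, 0.298% the X box and 1.79% the X2 box. The X box and the Y box core occurred together in 8 windows, 3 of them of class II genes (H2-Eb1, H2-DMb1 and H2-Eb2). The windows of H2-Oa, H2-Ob and H2-DMb2 held the Y box core alone, and the 2 windows of H2-DMa held none of the 3 motifs. H2-Ab1 and Ciita are named only, and the promoter of Cd74 was not searched.

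**Figure D1:**
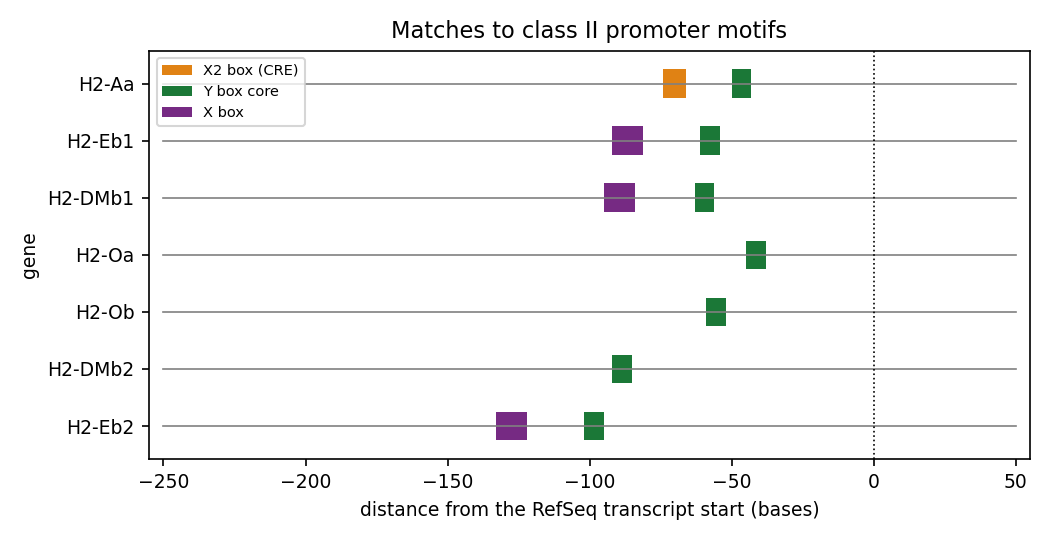
Matches to the Y box core, X box and X2 box in promoter windows running from 250 bases before to 50 bases after the RefSeq transcript start (dotted line) of 7 class II genes; the x axis is distance from the start in bases. Only genes whose window held a match are drawn, so H2-DMa, whose windows held none, is left out. The Y box core lies between 39 and 102 bases before the start in every gene drawn, and each X or X2 match lies upstream of it.

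The first comparison asked whether the classical class II chains differed between transgenic and wild-type liver. H2-Aa, which encodes the alpha chain of I-A and lies at chr17:34282744-34287823, had raw signals of 869, 842 and 2031 on transgenic replicates 1, 3 and 4, against 1601, 1197 and 2017 on wild-type replicates 1, 2 and 4. After normalization it lay at 9.67, 9.52 and 10.7 in the transgenic livers, against 10.9, 10.5 and 10.9 in the wild-type livers. Transgenic replicates 1 and 3 were below every wild-type array, and replicate 4 was inside the wild-type range, so the groups overlapped. The means were 9.97 ± 0.65 in transgenic and 10.8 ± 0.25 in wild-type livers (SD, n = 3 each), a log2 change of -0.80 ± 0.36 (SE) with a 95% interval of -1.68 to 0.08. This is 57.3% of the wild-type level, and the adjusted p of limma was 0.69, short of the threshold of 0.05.

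The beta chain genes had the same layout. H2-Ab1, the partner of H2-Aa in I-A (chr17:34263227-34269418), lay at 8.42, 8.23 and 9.77 in the transgenic livers, against 9.96, 9.41 and 9.50 in the wild-type livers. Its log2 change was -0.82 ± 0.45 (SE), with a 95% interval of -1.90 to 0.27 (limma adjusted p = 0.70). H2-Eb1, the beta chain of I-E (chr17:34305867-34316674), lay at 8.10, 7.91 and 9.34, against 9.60, 8.90 and 9.19 in the wild-type livers. Its log2 change was -0.78 ± 0.43 (SE), with a 95% interval of -1.82 to 0.26 (limma adjusted p = 0.70). For both genes, transgenic replicates 1 and 3 were again below every wild-type array, and replicate 4 was above 2 of the 3 wild-type arrays. C57BL/6 mice make no I-E protein, because the gene of its alpha chain, H2-Ea, is defective in this strain, so H2-Eb1 is read here as a transcript only. No probe was matched to H2-Ea or H2-Eb2.

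The 3 chain genes followed each other closely from array to array. Across the 6 arrays Pearson's r was 0.99 between H2-Ab1 and H2-Eb1, 0.98 between H2-Aa and H2-Eb1 and 0.97 between H2-Aa and H2-Ab1. These correlations describe values that share the same 6 arrays and their normalization. The mean of the 3 genes deviated from its wild-type mean by -1.14 and -1.32 in transgenic replicates 1 and 3 and by 0.07 in replicate 4. Wild-type replicates 1, 2 and 4 deviated by 0.29, -0.27 and -0.01, so replicates 1 and 3 lay outside the wild-type range and replicate 4 inside it.

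**Figure D2:**
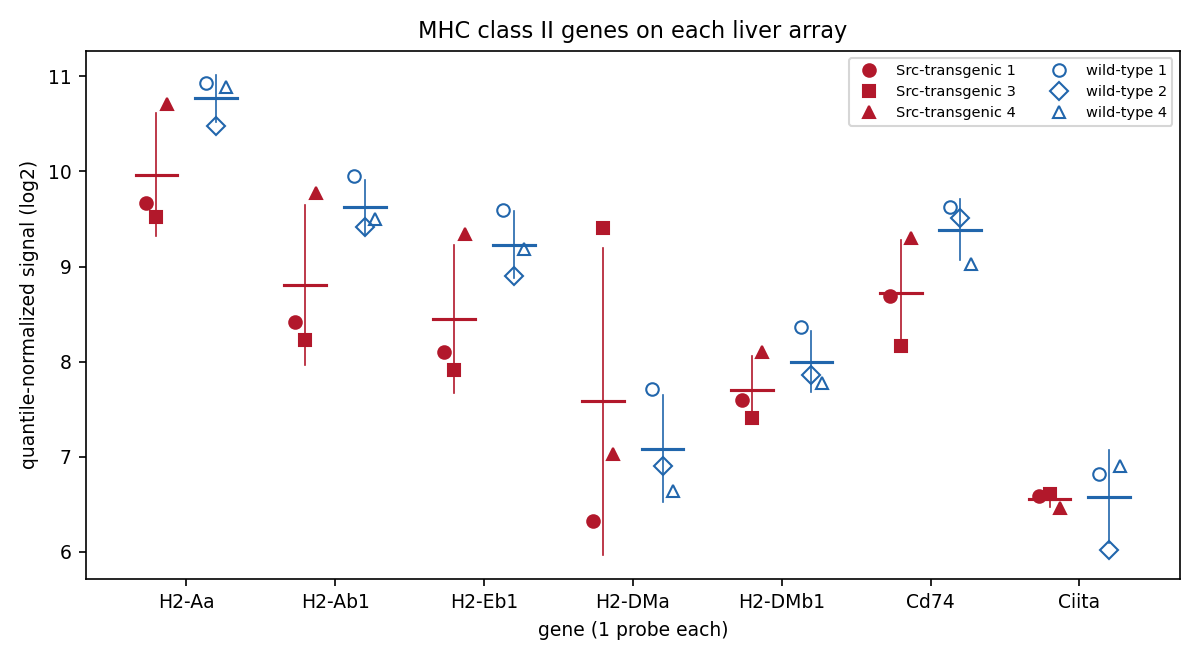
Quantile-normalized log2 signal of the 7 class II genes on each array, with Src-transgenic livers as filled symbols on the left of each gene and wild-type livers as open symbols on the right; horizontal lines are group means and vertical lines their SD (n = 3 each). For H2-Aa, H2-Ab1, H2-Eb1, H2-DMb1 and Cd74, transgenic replicates 1 and 3 lie below all wild-type arrays and replicate 4 lies among them, while H2-DMa is high on transgenic replicate 3 alone.

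Peptide loading was read through Cd74 and the H2-DM genes. Cd74, the invariant chain gene (chromosome 18), lay at 8.69, 8.17 and 9.30 in the transgenic livers, against 9.63, 9.51 and 9.03 in the wild-type livers. Transgenic replicates 1 and 3 were below every wild-type array, and replicate 4 was between wild-type replicates 4 and 2. The log2 change was -0.67 ± 0.34 (SE), 62.9% of the wild-type level, with a 95% interval of -1.50 to 0.17 (limma adjusted p = 0.69). Without transgenic replicate 3 it was -0.39, and with the replicate number as a block -0.33. Its r with the 3 chain genes was 0.85 to 0.91 across the 6 arrays.

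H2-DMb1, the beta chain of the peptide exchanger (chr17:34153191-34160229), lay at 7.59, 7.41 and 8.10 in the transgenic livers, against 8.37, 7.86 and 7.77 in the wild-type livers. Transgenic replicates 3 and 1 were the lowest arrays, as for the classical chains, and its r with these was 0.83 to 0.92. It had a log2 change of -0.30 ± 0.28 (SE; limma adjusted p = 0.78). It was -0.12 without wild-type replicate 1, -0.15 without transgenic replicate 3 and -0.50 without transgenic replicate 4. H2-DMb2, a close paralog, had raw signals of at most 15.0 and was not above background on any array.

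H2-DMa, which encodes the alpha chain of the same exchanger (chr17:34119693-34139101), did not follow its partner. It lay at 6.32, 9.40 and 7.03 in the transgenic livers, against 7.71, 6.91 and 6.64 in the wild-type livers, and its r with H2-DMb1 was -0.25. The value of 9.40 came from transgenic replicate 3, where the spot lay in a bright patch of the array: the spots around it were 0.88 above their medians over the arrays. The log2 change of 0.50 ± 0.81 (SE; limma adjusted p = 0.87) became 0.13 after local correction of patches, -0.41 without transgenic replicate 3 and 1.13 without transgenic replicate 1. Without transgenic replicate 4 it was 0.78. The sign thus changed with the array left out.

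Of the genes for H2-O, the inhibitor of H2-DM, H2-Oa lay at 6.93, 6.47 and 6.86 in the transgenic livers, against 7.63, 6.85 and 10.3 in the wild-type livers. The log2 change of -1.51 ± 0.86 (SE) rested on wild-type replicate 4 and was -0.49 without it. H2-Ob differed by 0.04 ± 0.46 (SE). Neither passed limma's test (adjusted p = 0.70 and 0.99).

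Ciita, the coactivator gene (chr16:10480014-10531064), did not share the array pattern of the chains. It lay at 6.59, 6.60 and 6.46 in the transgenic livers, against 6.81, 6.02 and 6.90 in the wild-type livers. The transgenic arrays spanned 0.14 and lay inside the wild-type span of 0.89. The log2 change was -0.03 ± 0.28 (SE; limma adjusted p = 0.98), and its 95% interval of -0.72 to 0.66 holds the estimate of Cd74 and not those of the 3 chains. The difference between genes was not tested. Its r with the chain genes was 0.05 to 0.18. Single-probe signal this close to background limits what can be read, since the background threshold was 33.0 to 50.6 and Ciita had raw signals of 56.6 to 128.

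Counted together, all 7 members were above background on all 6 arrays, a property of 56.3% of the features tested. Of the 7, 6 had a negative log2 change, against 48.3% of 34175 features, and 4 had one below -0.5, against 13% of features. The members' median was -0.67, beside 0.02 over all features. No member passed the adjusted threshold in either direction (percent called over all features 0 in each), and none did at an unadjusted p under 0.05, where 2.72% of the features were lower and 4.37% higher. That absence rests on the settings: H2-Aa was under the unadjusted threshold with median scaling, with dim probes left out, with a trended spread and with array weights, and Cd74 with array weights. None separated the groups completely either, which 5.9% of features did with all transgenic arrays below and 10.1% with all above. By an exact two-sided permutation test over the 6 arrays the members' p ran from 0.2 to 1, where 0.1 is the smallest that 3 arrays against 3 allow.

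Leaving out transgenic replicate 4 enlarged the differences. The log2 changes were then -1.17 ± 0.25 for H2-Aa, -1.30 ± 0.27 for H2-Ab1, -1.22 ± 0.29 for H2-Eb1 and -0.96 ± 0.31 for Cd74 (SE, 2 arrays against 3). These 4 members had an unadjusted limma p of 0.0040 to 0.025, and their adjusted p was 0.82. In that fit 2.25% of all features were lower and 2.79% higher at an unadjusted p under 0.05. Leaving out transgenic replicate 3 brought the chains to -0.51 to -0.58 and Cd74 to -0.39, and the unadjusted limma p of these 4 members was 0.19 to 0.31. Leaving out transgenic replicate 1 brought the 4 to -0.60 to -0.66, with an unadjusted limma p of 0.18 to 0.28. The Y-linked genes set the same transgenic replicate 4 apart. The sex of the mice is not given, and a part of sex in the class II values was not tested.

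**Figure D3:**
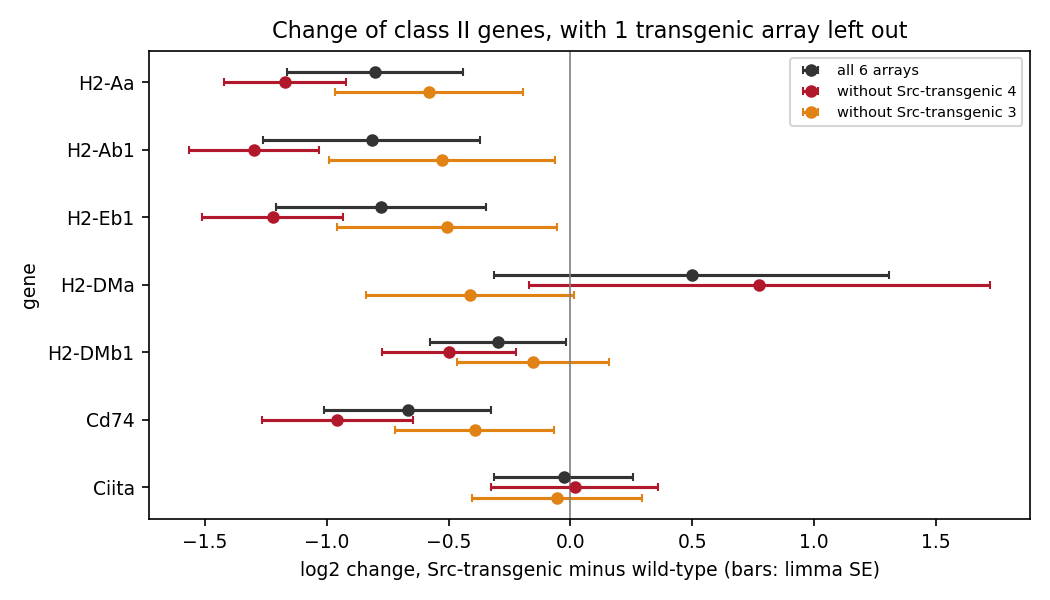
Log2 change of each class II gene, Src-transgenic minus wild-type, with limma's SE as bars, over all 6 arrays, without transgenic replicate 4 and without transgenic replicate 3. The 3 chain genes and Cd74 stay below 0 in all 3 fits, from -0.39 to -1.30, H2-DMa changes side, and Ciita lies between -0.05 and 0.02.

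The other genes of the pathway were taken from lists and described beside the members. No gene of these lists passed the adjusted threshold of limma. Among the 7 measured regulators that act at class II promoters, 5 had negative values and the median was -0.04. It was 0.02 without transgenic replicate 4 and 0.07 without transgenic replicate 3. Nfyc, a subunit of the Y box factor NF-Y, had a log2 change of -0.58 ± 0.33 (SE). Rfx5, the DNA-binding subunit of RFX, was above background on 2 transgenic arrays and no wild-type array, so its wild-type level is only a bound. Nfyb had 0.27 ± 0.30 and Rfxap -0.24 ± 0.27 (SE).

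Endosomal proteases and the reductase that open antigens and trim the invariant chain had a median of -0.07, with 5 of 8 negative. Without transgenic replicate 3 the median was 0.16 with 2 negative, without transgenic replicate 4 it was -0.23 with 6, and under median scaling -0.28 with 7, so the list had no settled direction. Ctss, the protease that cuts the invariant chain in antigen-presenting cells, lay at 10.2, 9.99 and 11.1 in the transgenic livers, against 10.6, 10.4 and 10.4 in the wild-type livers. It was thus lowest on the 2 transgenic arrays that were low for class II chains, while its log2 change was -0.08 ± 0.32 (SE). Ctsz had -0.50 ± 0.67, Ifi30, the thiol reductase, -0.50 ± 0.51, Ctsb 0.33 ± 0.24 and Ctsl -0.26 ± 0.29 (SE). Ctsz lay in a dim patch on 1 array and turned to 0.29 without transgenic replicate 3.

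For turnover and costimulation the median was -0.01 over 6 genes, -0.28 without transgenic replicate 4 and 0.12 without transgenic replicate 3. Cd274, the ligand of PD-1, had -0.82 ± 0.55 (SE), which became -0.19 without wild-type replicate 2. Marchf1, the ligase that removes class II from the surface, had 0.37 ± 0.63 (SE), with its spot in a patch on 1 array. This turned to -0.32 without transgenic replicate 4 and was 0.01 after local correction. Marchf8 had -0.33 ± 0.27 (SE), -0.11 without transgenic replicate 4, and Cd40 was not above background on any array. In the interferon gamma axis, the main inducer of CIITA, 3 of 9 genes were negative and the median was 0.12, or 0.03 without transgenic replicate 4. Ifng itself was not above background on any array, so no level can be compared. Jak1, at 0.30 ± 0.20 (SE), was higher on every transgenic array than on any wild-type array, as 10.1% of all features were. Under median scaling its log2 change was 0.08. After normalization Socs1 was lower on every transgenic array than on any wild-type array, as 5.9% of all features were. It was above background on 2 transgenic and 2 wild-type arrays, with raw signals of 40.3 to 58.8, so the size of its difference is not given. Ifngr2, a receptor chain, had 0.35 ± 0.43 (SE), which turned to -0.11 without transgenic replicate 1. Irf8, too, was above background on only 2 transgenic and 2 wild-type arrays. Its raw signals were 40.1 to 65.1 apart from 572 on wild-type replicate 2. Its log2 change of -1.40 ± 1.03 (SE) became -0.16 without that array.

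Class I presentation, which interferon gamma also induces, had 6 negative values of 9 and a median of -0.27. The median was -0.15 without transgenic replicate 3, -0.36 without transgenic replicate 4 and -0.48 under median scaling. Psme1, which encodes a subunit of the PA28 proteasome activator, lay at 9.58, 9.16 and 11.2 in the transgenic livers, against 12.0, 11.5 and 11.5 in the wild-type livers. All 3 transgenic arrays were below all 3 wild-type arrays, as for 5.9% of all features, and replicates 1 and 3 were again the lowest. The log2 change was -1.71 ± 0.53 (SE; limma adjusted p = 0.69), and -2.30 without transgenic replicate 4. Tap1, a subunit of the peptide transporter, had -0.70 ± 0.35, the immunoproteasome gene Psmb9 -0.51 ± 0.26 and Tapbp, the tapasin gene, 0.27 ± 0.20 (SE). The list mean deviated by -0.43, -0.59 and 0.00 in transgenic replicates 1, 3 and 4, against 0.27, -0.07 and -0.21 in the wild-type livers.

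Markers of the cells that carry class II were set beside the members. Of 8 general leucocyte genes 7 were negative, with a median of -0.47, and the list mean deviated by -0.43, -0.71 and -0.05 in transgenic replicates 1, 3 and 4, against 0.24, -0.08 and -0.16 in the wild-type livers. Transgenic replicates 3 and 1 were the lowest arrays here, as for the class II chains, and the other 4 arrays took another order. Without transgenic replicate 4 all 8 were negative with a median of -0.71, and after local correction of patches the median was -0.27. The summed signal of this list was 1057 to 1639 in the transgenic and 1632 to 1952 in the wild-type livers. Here and for the lists below, it is the sum of the genes' normalized signals taken back from the log2 scale, so bright genes weigh most. Arhgdib had a log2 change of -0.48 ± 0.26, Rac2 -0.38 ± 0.27 and Cd53 -0.63 ± 0.35 (SE), the last -0.00 after local correction of patches. Ptprc, the positive gene of the list, had 0.13 ± 0.27 (SE) and was above background on 2 transgenic arrays and no wild-type array. Without transgenic replicate 4 Ptprc was at -0.00, and Laptm5, at -0.08 ± 0.24 (SE) over all 6 arrays, was at -0.04. Lcp1 was not above background on any array.

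Of 10 dendritic cell genes 4 were negative with a median of 0.18, and without transgenic replicate 4 the count was 5 and the median 0.04. The list had summed signals of 1812 to 2643 in the transgenic and 1578 to 1779 in the wild-type livers. Flt3, the receptor that maintains dendritic cells, lay at 7.90, 8.56 and 8.04 in the transgenic livers, against 7.40, 7.40 and 7.46 in the wild-type livers. Its log2 change was 0.75 ± 0.23 (SE; limma adjusted p = 0.69). Cd209a had 0.56 ± 0.20 (SE), or 0.33 after local correction of patches, and Zbtb46 0.33 ± 0.20 (SE). The 4 negative genes were Itgax at -0.21 ± 0.32, Fscn1 at -0.19 ± 0.94, Batf3 at -0.14 ± 0.32 (SE) and Siglech. After local correction Fscn1 was at 0.33 and Batf3 at 0.22. Clec9a had 0.18 ± 0.40 (SE), which turned to -0.24 without transgenic replicate 4. Flt3 and Cd209a were higher on every transgenic array than on any wild-type array, as 10.1% of all features were. Siglech and Itgae were not above background on any array, and Ccr7 was above it on 1 transgenic array alone.

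Of 7 monocyte genes none was negative, and the median was 0.37, or 0.28 without transgenic replicate 4. S100a4, a calcium-binding protein of monocytes and fibroblasts, lay at 9.56, 9.79 and 10.2 in the transgenic livers, against 8.42, 9.01 and 8.97 in the wild-type livers. Its log2 change was 1.07 ± 0.28 (SE; limma adjusted p = 0.69). Cx3cr1, the fractalkine receptor, had 0.62 ± 0.22 (SE) with all transgenic arrays above all wild-type arrays, as for 10.1% of all features. Ccr2 had 0.37 ± 0.31 and Fcgr3 0.29 ± 0.25 (SE). The summed signal of the list was 1917 to 3371 in the transgenic and 1355 to 1782 in the wild-type livers. Monocyte values held their sign for 6 of 7 genes without transgenic replicate 4 and for 6 of 7 after local correction.

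Kupffer cell and macrophage markers were at their highest in transgenic replicate 4. Their mean deviated by -0.14, -0.32 and 0.55 in transgenic replicates 1, 3 and 4, against 0.05, 0.11 and -0.16 in the wild-type livers. Of 9 genes 3 were negative, with a median of 0.06, and without transgenic replicate 4 this became 8 of 9 with a median of -0.25. The 4 genes of this list with the smallest limma p were Msr1 at -0.24 ± 0.20, Cd163 at 0.21 ± 0.22, C1qc at -0.22 ± 0.30 and Vsig4 at 0.24 ± 0.33 (SE), the last -0.09 without transgenic replicate 4. Clec4f, the defining Kupffer cell lectin, was above background on all 6 arrays, at 7.40, 7.05 and 8.02 in the transgenic livers, against 7.79, 7.66 and 7.21 in the wild-type livers. The summed signal of the list was 6232 to 11866 in the transgenic and 6914 to 8427 in the wild-type livers.

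B cell genes had 6 negative values of 9 and a median of -0.11, with a list mean within -0.05 and 0.04 in the transgenic and -0.10 and 0.12 in the wild-type livers. Cd79a, the signalling chain of the B cell receptor, had 0.56 ± 0.37 (SE), and this turned to -0.06 after local correction of patches. Pax5 had 0.28 ± 0.18 (SE), and 0.03 after that correction. On the other side Cd79b had -0.52 ± 0.40, Fcrla -0.39 ± 0.31 and Fcmr -0.37 ± 0.33 (SE), the first with its spot in patches on 2 arrays and at 0.37 after correction. Ms4a1, at -1.88 ± 0.88 (SE), was above background on 1 transgenic and 1 wild-type array. Blk, at 2.46 ± 0.42 (SE), was above it on 2 transgenic arrays and no wild-type array. These large values of opposite sign, mostly at background, offset each other in the list mean. Of the 7 B cell genes above background on all 6 arrays 5 were negative, with a median of -0.11. Of 9 T and NK cell genes 7 were negative, with a median of -0.32 that became -0.09 without transgenic replicate 4. Cd3g, at -0.74 ± 0.29, and Nkg7, at -0.56 ± 0.22 (SE), were lower on every transgenic array than on any wild-type array, as 5.9% of all features were. Cd4 had 0.17 ± 0.34 (SE), Cd3e was above background on 1 transgenic array and no wild-type array, and Klrb1c on none. Sinusoidal endothelial genes had 6 of 8 negative and a median of -0.12. Without transgenic replicate 3 this was 4 of 8 with a median of 0.01, and without transgenic replicate 4 it was 7 with -0.22. Stab1 had -0.31 ± 0.21 and Kdr, Pecam1 and Stab2 had -0.18 ± 0.26, -0.16 ± 0.22 and -0.14 ± 0.22 (SE). The positive genes were Lyve1, at 0.33 ± 0.86 with its spot in patches on 3 arrays, and Fcgr2b, at 0.03 ± 0.32 (SE). Hepatocyte genes had a median of 0.04, of 0.10 without transgenic replicate 4, and of -0.61 under median scaling, where the median of all features was -0.08. Trf, the transferrin gene, had 0.63 ± 0.24 (SE) and 0.08 under median scaling, Ttr 0.10 ± 0.17 and -0.56, Alb 0.10 ± 0.18 and -0.61, and Tat -0.30 ± 0.31 and -0.64. The part of these cell types in the class II values was not tested.

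**Figure D4:**
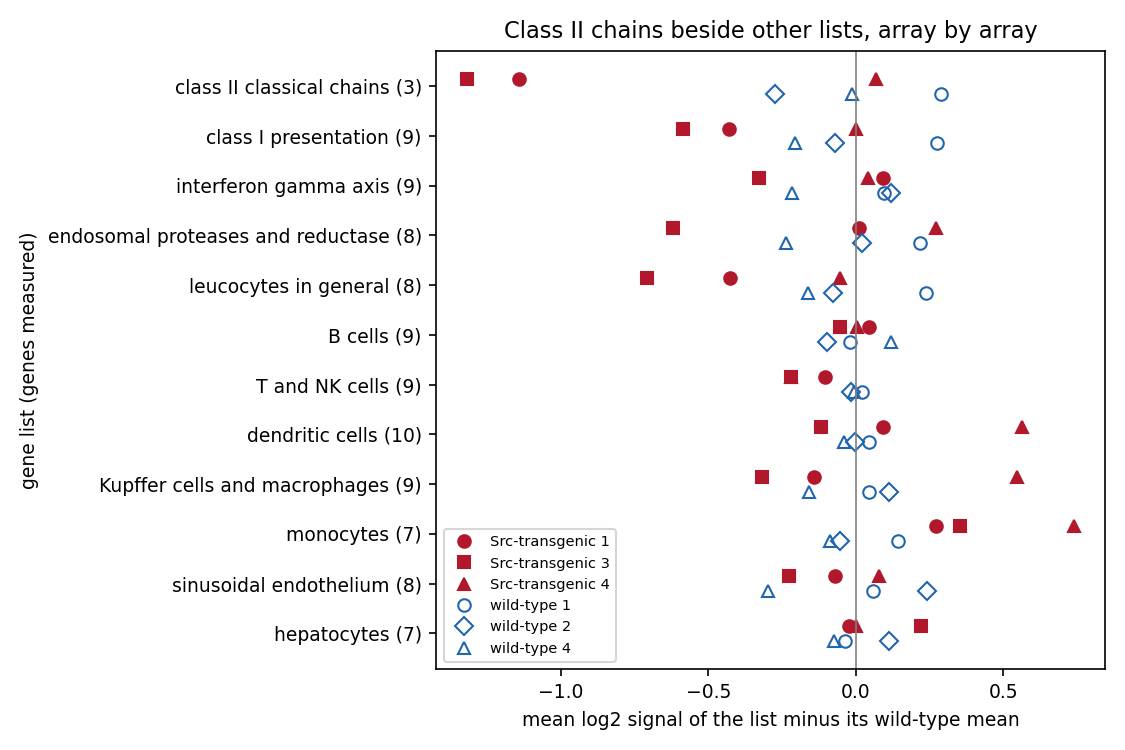
Mean log2 signal of 12 gene lists on each array, minus the list's wild-type mean, with Src-transgenic livers as filled symbols and wild-type livers as open symbols; the number of genes measured stands beside each list. The class II chains are lowest on transgenic replicates 1 and 3, at -1.14 and -1.32, general leucocyte genes are lowest on the same 2 arrays, and dendritic, macrophage and monocyte genes are highest on transgenic replicate 4.

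The named genes whose pattern was most like the mean of the 7 members were sought among 9609 genes above background on all 6 arrays. Over the 6 arrays they were Mthfs (r = 1.00), Bik (0.99), Ift22 (0.99), Zfp30 (0.99), Fbxl8 (0.99) and Tm4sf1 (0.99). So few arrays give high values readily, and 181 genes had an r above 0.9. The mean of the 7 members takes in the high H2-DMa spot of transgenic replicate 3. Against the mean of the 3 chain genes and Cd74, a choice made after the values were seen, 143 genes had an r above 0.9. The 6 highest were Ocln, Ndufa13, Adcy9 and Tbc1d23 (0.99 each), then the T cell chemokine gene Ccl5 and Lrrc42 (0.98 each). Ocln had a log2 change of -0.74 ± 0.34 (SE; limma adjusted p = 0.69) and Ccl5 one of -0.64 ± 0.34 (SE; limma adjusted p = 0.70).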

How the data were processed

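Per the file headers, the authors deposited a linear intensity for every spot from which background had been subtracted. A second deposited intensity column and the authors' value table hold these signals after scaling each array by a single factor, with column medians of 0.998 to 0.999. Scanner and image software: not given in the sources used here.

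Each array held 34967 mouse probes after 620 bacterial control spots were left out. Signals below each array's lowest percentile of positive values (4.72 to 5.75) were set to that value, and log2 values were quantile normalized. Accessions without versions were matched to RefSeq (GRCm38.p6), which named 14763 probes to 13971 genes and left 20204 probes unnamed. The brightest probe stood for a gene. A probe was above background at a raw signal over the background threshold, set from 570 control spots as their median and 3 scaled median absolute deviations. Patches were spots whose neighbours within 4 rows and columns deviated by a median above 0.5 on the log2 scale, and local correction subtracts that median. The comparison used limma 3.58.1 (R 4.3.3) on log2 values, with two-sided moderated tests adjusted by Benjamini-Hochberg over 34175 features. A simulation with changes planted in independent noise required only that mean log2 estimates came out near the planted values. SE is limma's moderated one. Figures used matplotlib 3.10.9.

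The members and lists were chosen with earlier results of these data known, so no list was tested. The genes named were all members, up to 4 of each list with the smallest p, defining markers not above background, the 6 most like the members' mean, and Src, Mt1 and Mt2. Apoa1, Ctss, Clec4f, H2-Ob, Ccl5, Cd4, Cd79b, Fcrla, Fcmr, Laptm5, Itgax, Fscn1, Batf3, Clec9a, Lyve1, Fcgr2b and the Y-linked genes outside the rule were added after their values were seen. Replicates are labelled as separate mice or controls.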

Additional observations from a re-analysis of the deposited data

How the results depend on the processing

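The number of features passing limma's adjusted threshold was 0 and became 1 when every probe was tested separately, and 0 to 1 when single arrays were left out. It was also 1 without Src-transgenic replicate 4 and with local correction of patches, a pair of settings chosen after the data were seen. No class II gene passed in any of the 17 alternatives. The members' median log2 change stayed between -0.96 and -0.41. Of 118 values of single members under these alternatives, 110 kept their sign. Some of these could not differ: the authors' value table, separate probes, a trended spread and leaving out dim or patch probes do not alter log2 changes. The tally therefore overstates how often the sign was put to a check. H2-DMa turned to -0.50 with the replicate number as a block and to -0.41 without transgenic replicate 3, in a range of -0.41 to 1.13 over single arrays left out. Ciita, at -0.03, turned to 0.15 with array weights, 0.066 with local correction, 0.02 without transgenic replicate 4, 0.09 without wild-type replicate 1, 0.14 without wild-type replicate 4 and 0.089 without transgenic replicate 4 and with local correction, and ranged from -0.31 to 0.14 over single arrays left out. The causes were not tested. With the replicate number as a block, where numbers 1 and 4 occur in both groups but same-numbered arrays correlated at 0.060 and 0.058 in their deviations from group means and so were not taken as pairs, the members' median was -0.50 and the count stayed at 0. Features at an unadjusted p under 0.05 were 931 lower and 1493 higher, and 1312 and 943 with median scaling. With 3 arrays a group, the number of arrays limits every comparison, and Ciita lay close to background.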
